A study of Mus musculus with 9 samples.

Results

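Apolipoproteins are the protein components of lipoprotein particles, which carry lipids through the blood. Liver parenchymal cells secrete most of them: apolipoprotein B is the structural protein of very low density lipoprotein, apolipoproteins A-I and A-II are the main proteins of high density lipoprotein, and smaller exchangeable apolipoproteins tune how fast triglyceride is hydrolysed and particles are taken up. Before birth the liver also houses blood formation, and after birth milk makes fat a main fuel. The 10 genes described here are Apoa1, Apoa2, Apoa4, Apoa5, Apob, Apoc2, Apoc3, Apoe, Apoh and Apom, taken as a listed gene family, and 9 of them had a value among 19938 genes measured. The only probe set for Apoc2, which encodes the activator of lipoprotein lipase, is also annotated to a readthrough transcript with its neighbour, so Apoc2 is given no value.

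The arrays measured RNA of cells sorted from livers of C57BL/6 mice heterozygous for a DsRed reporter at the Cxcl12 gene (Cxcl12DsRed/+), with no wild-type group. The sample titles name a stage and no treatment. Sorted cells carried DsRed and lacked the leukocyte marker CD45 and the erythroid marker Ter119, and the labels call them stromal cells. There were 3 arrays each from embryos at E15.5 and from pups at P5 and P10. The series text calls the replicates independent, but the labels do not say whether they came from separate animals or pools, so each p-value reflects array-to-array spread, which may be technical.

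The label of stromal cells was set against marker lists. Hepatocyte genes were uneven at E15.5. Alb, Afp, Ttr, Ambp and Rbp4, which encode plasma proteins, had means of 12.72 to 13.32 log2. Cyp2e1, Tat, G6pc, Cps1 and Asgr1 had means of 5.53, 5.68, 5.30, 6.25 and 6.27, below the array medians of 6.69 to 6.82. Cps1 varied, at 5.53, 5.96 and 7.27 on the E15.5 arrays. The other genes of the list lay between, among them Asgr2 at 7.17, Hnf4a at 8.42, Hpd at 8.58, Krt18 at 10.29 and Krt8 at 10.57. The summed linear signal over the 20 hepatocyte genes, to which the brightest add most, ran from 63402 to 65991 at E15.5, from 100690 to 107314 at P5 and from 89840 to 100825 at P10. Over 20 hepatic stellate genes it ran from 26931 to 30992 at E15.5, from 8275 to 10824 at P5 and from 6544 to 8385 at P10. Albumin (Alb) had a mean of 13.14 log2 in E15.5 cells, 13.20 at P5 and 13.13 at P10, and Cxcl12 had 10.98, 10.17 and 10.13. Ptprc, which encodes CD45, stayed at 5.05 to 5.11. The apolipoproteins are therefore described as genes of the sorted fraction. In a bulk sample, fewer cells of a type and less RNA per cell cannot be told apart, and the part of cell makeup in the differences between stages was not tested.

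The genes form clusters: Apoa1, Apoc3, Apoa4 and Apoa5 lie in that order within 43.3 kb, at chr9:46228630-46271921 of GRCm38.p6. Apoe lies in another cluster with Apoc2, Apoc4 and Apoc1, within 29.7 kb at chr7:19671579-19701310. The 150 bases before an annotated start are printed for neighbours on chromosome 9 and for 2 genes outside the cluster, because the cluster genes moved by different amounts. The sequences are RefSeq's for GRCm38.p6, all on the plus strand, 5′ to 3′, and capitals mark matches to the motifs searched. Of the 10 genes, 9 had at least 1 such window, 13 windows in all, and the other is Apoc3. Apoa5 also had a window at chr9:46268483-46268632, which overlaps the one printed.

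Apoa1, chr9:46228480-46228629: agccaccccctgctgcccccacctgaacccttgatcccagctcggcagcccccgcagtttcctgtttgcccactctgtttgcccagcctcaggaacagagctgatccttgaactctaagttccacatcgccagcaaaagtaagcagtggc
Apoa4, chr9:46240694-46240843: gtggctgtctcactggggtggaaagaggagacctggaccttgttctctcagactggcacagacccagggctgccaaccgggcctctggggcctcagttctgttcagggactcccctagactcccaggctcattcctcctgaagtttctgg
Apoa5, chr9:46268458-46268607: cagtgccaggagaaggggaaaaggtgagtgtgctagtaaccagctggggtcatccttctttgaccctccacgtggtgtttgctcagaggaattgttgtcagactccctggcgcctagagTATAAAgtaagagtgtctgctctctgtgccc
Apob, chr12:7977527-7977676: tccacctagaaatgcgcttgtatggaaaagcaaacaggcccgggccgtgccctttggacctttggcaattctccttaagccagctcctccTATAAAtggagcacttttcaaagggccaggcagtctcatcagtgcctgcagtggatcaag
Apoh, chr11:108395147-108395296: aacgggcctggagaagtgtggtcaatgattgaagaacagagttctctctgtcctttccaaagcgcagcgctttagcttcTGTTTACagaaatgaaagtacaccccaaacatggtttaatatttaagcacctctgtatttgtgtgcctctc

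The motifs were searched on both strands, and overlapping matches were counted. The TATA box was searched as TATAAA, and 7.57% of 32851 windows of this length in the genome hold it. With the base before the start as -1, its first base lay at -31 in the Apoa5 window shown and at -60 in the Apob window. The Apob gene is annotated from 7977629, inside its window, so -60 is counted from a later annotated start. The core bound by FOXA factors was searched as TGTTTAC, held by 1.8% of windows, and began at -71 in the Apoh window. A nuclear receptor element searched as AGGTCA was held by 8.58% of windows, an HNF1 element searched as GTTAAT by 3.71%, a CAAT box searched as CCAAT by 24.5%, and an HNF4-type core searched as CAAAGTCCA by 0.271%. None of these motifs was found in the Apoa1 and Apoa4 windows shown. These matches are descriptions of the letters and say nothing of binding.

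Between E15.5 and P5 the family rose unevenly. Apoc3, Apoa5 and Apoa4 rose by more than 3 log2 units, Apoh, Apoe and Apoa1 rose less, and Apoa2, Apob and Apom did not pass the test. By P10 Apoc3 was higher still, Apoa4 had fallen again, and Apob and Apom were below their level at E15.5. The signal is on the log2 scale of RMA (robust multi-array averaging), a difference of 1 is a doubling, and a gene was called where limma's adjusted p, by Benjamini-Hochberg over all 19938 genes, was under 0.05.

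**Figure D1:**
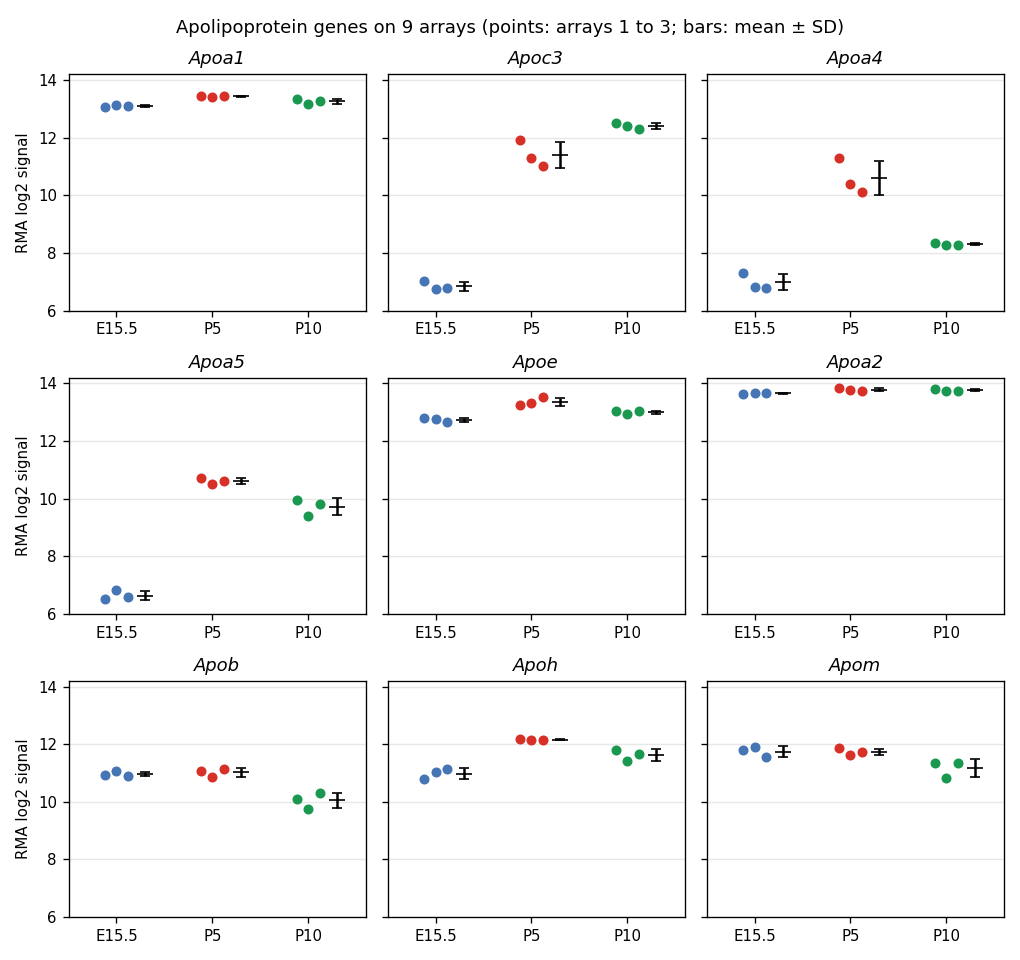
RMA log2 signal (vertical axis) of the 9 measured apolipoprotein genes on each of the 3 arrays at E15.5, P5 and P10 (points), with the mean ± SD of each stage (bars). Compared with its own other stages, Apoc3 lies lowest at E15.5 and highest at P10, while Apoa4 is highest at P5. Apoa2 stays between 13.64 and 13.84 throughout.

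Apoc3 encodes the inhibitor of lipoprotein lipase and of remnant uptake. Its signal was 7.03, 6.75 and 6.77 on the E15.5 arrays, 11.91, 11.29 and 11.03 at P5, and 12.50, 12.43 and 12.30 at P10. The 3 stages did not overlap, and every later array was above every earlier one. Apoc3 was 23.6-fold higher at P5 than at E15.5 (4.56 ± 0.20 log2, SE, limma adjusted p = 8.361e-07) and 47.1-fold higher at P10 than at E15.5 (5.56 ± 0.20, limma adjusted p = 1.939e-07). At E15.5 Apoc3 was above the array median of all genes on 1 of 3 arrays. Its folds over E15.5 therefore start from a middling signal, and they were not checked as ratios of transcripts. The further rise from P5 to P10 was 2.00-fold (1.00 ± 0.20, limma adjusted p = 0.02749). That last call was lost when only those 2 stages were fitted, and without P5 array 2 or any single P10 array, with an adjusted p of up to 0.09191.

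Apoa4 encodes an exchangeable apolipoprotein made by intestine and liver. Its signal was 7.30, 6.84 and 6.80 at E15.5, 11.29, 10.41 and 10.14 at P5, and 8.36, 8.29 and 8.28 at P10. P5 was above both other stages on every array, although its 3 arrays spread over 1.15 log2 units. Apoa4 was 12.4-fold higher at P5 than at E15.5 (3.63 ± 0.27 log2, SE, limma adjusted p = 1.631e-05) and 4.92-fold lower at P10 than at P5 (-2.30 ± 0.27, limma adjusted p = 0.003074). At P10 it was still 2.52-fold above E15.5 (1.33 ± 0.27, limma adjusted p = 0.004249).

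Apoc3 and Apoa4 are adjacent genes, and this pair was set side by side after their values had been seen. On the same array, Apoc3 minus Apoa4 was -0.13 ± 0.13 log2 at E15.5 (SD, n = 3), 0.80 ± 0.15 at P5 and 4.10 ± 0.068 at P10. The difference between their probe sets has no meaning as a ratio of transcripts, but its change between stages does not depend on the scale of an array. It grew by 3.30 from P5 to P10, which is given as a description, since the pair was picked for this pattern. An exact permutation test of this growth gave p = 0.1, the smallest possible with 3 arrays against 3, so it could decide nothing.

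Apoa5 encodes an activator of triglyceride hydrolysis. Its signal was 6.51, 6.82 and 6.58 at E15.5, 10.72, 10.51 and 10.62 at P5, and 9.96, 9.39 and 9.81 at P10. The stages did not overlap, with P5 highest. Apoa5 was 15.8-fold higher at P5 than at E15.5 (3.98 ± 0.15 log2, SE, limma adjusted p = 3.597e-07), and 1.86-fold lower at P10 than at P5 (-0.90 ± 0.15, limma adjusted p = 0.01308). It was 8.47-fold above E15.5 at P10 (3.08 ± 0.15, limma adjusted p = 8.995e-07). As for Apoc3, the E15.5 signal was above the array median of all genes on 1 of 3 arrays, and the same limit applies.

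Apoa1, the first gene of the chromosome 9 cluster, encodes the main protein of high density lipoprotein and the activator of cholesterol esterification by LCAT. Its signal was 13.08, 13.15 and 13.10 at E15.5, 13.43, 13.43 and 13.45 at P5, and 13.34, 13.18 and 13.28 at P10. The P5 arrays were above all others. Apoa1 was 1.25-fold higher at P5 than at E15.5 (0.33 ± 0.057 log2, SE, limma adjusted p = 0.002214), while P10 against E15.5 gave 0.15 ± 0.057 (limma adjusted p = 0.06727). The latter passed in 5 of 18 alternative settings, which leave aside the hepatocyte centring described further on, with an adjusted p down to 0.009649, among them the fit without P10 array 2. Apoa2 encodes the second protein of the same particles. It read 13.64, 13.65 and 13.66 at E15.5, 13.84, 13.77 and 13.75 at P5, and 13.80, 13.75 and 13.75 at P10. It had the highest value of any gene on all 9 arrays, and at such levels array signals can be compressed, so its difference of 0.14 ± 0.050 from E15.5 to P5 (limma adjusted p = 0.06801) may understate a change. Apoa1 and Apoe, with means of 13.11 and 12.74 at E15.5, were also bright, and the same limit may apply to them. At P5 and at P10 against E15.5, Apoa2 passed in 4 of 18 alternative settings each, with adjusted p down to 0.0195 and 0.008768.

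Apoe encodes the ligand through which remnants bind lipoprotein receptors, and macrophages and stellate cells also express it. Its signal was 12.79, 12.78 and 12.66 at E15.5, 13.25, 13.31 and 13.51 at P5, and 13.04, 12.93 and 13.03 at P10. The stages did not overlap, with P5 highest and E15.5 lowest. Apoe was 1.53-fold higher at P5 than at E15.5 (0.62 ± 0.080 log2, SE, limma adjusted p = 0.0004213). Its fall of 0.36 from P5 to P10 (limma adjusted p = 0.04089) passed narrowly, and so did its excess of 0.26 at P10 over E15.5 (0.03341). The fall was lost in 11 of 18 alternative settings and the excess in 6, with adjusted p of up to 0.1377 and 0.1085. Among them were the fits without any single E15.5 array, P10 array 1 or P10 array 3 for the excess, and without E15.5 array 1 or 2, P5 array 2 or 3, or any single P10 array for the fall.

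Apoh encodes beta-2-glycoprotein I, a plasma protein that binds anionic phospholipids. Its signal was 10.79, 11.03 and 11.14 at E15.5, 12.17, 12.13 and 12.16 at P5, and 11.79, 11.41 and 11.67 at P10. The P5 arrays agreed within 0.04 log2 units and lay above all others. Apoh was 2.25-fold higher at P5 than at E15.5 (1.17 ± 0.117 log2, SE, limma adjusted p = 8.541e-05) and 1.56-fold higher at P10 than at E15.5 (limma adjusted p = 0.002251). Its fall of 0.53 from P5 to P10 (limma adjusted p = 0.03736) was lost in 9 of 18 alternative settings, including those without E15.5 array 2, any single P5 array, or P10 array 2 or 3, with an adjusted p of up to 0.1025.

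Apob encodes the structural protein of very low density lipoprotein. Its signal was 10.95, 11.06 and 10.90 at E15.5, 11.07, 10.85 and 11.15 at P5, and 10.10, 9.77 and 10.30 at P10. The first 2 stages overlapped, and every P10 array was below every other array. Apob differed by 0.057 ± 0.137 log2 between P5 and E15.5 (SE, limma adjusted p = 0.7921), and was 1.96-fold lower at P10 than at P5 (-0.97 ± 0.137, limma adjusted p = 0.006557).

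Apom encodes a carrier of sphingosine 1-phosphate on high density lipoprotein. Its signal was 11.79, 11.90 and 11.55 at E15.5, 11.85, 11.62 and 11.72 at P5, and 11.35, 10.82 and 11.34 at P10. As for Apob, the P10 arrays lay below the rest and the earlier stages overlapped. Apom was 1.49-fold lower at P10 than at E15.5 (-0.58 ± 0.156 log2, SE, limma adjusted p = 0.01782), a call lost without E15.5 array 1 or 2 (adjusted p of up to 0.0644), and P10 against P5 gave -0.56 ± 0.156 (limma adjusted p = 0.08392).

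**Figure D2:**
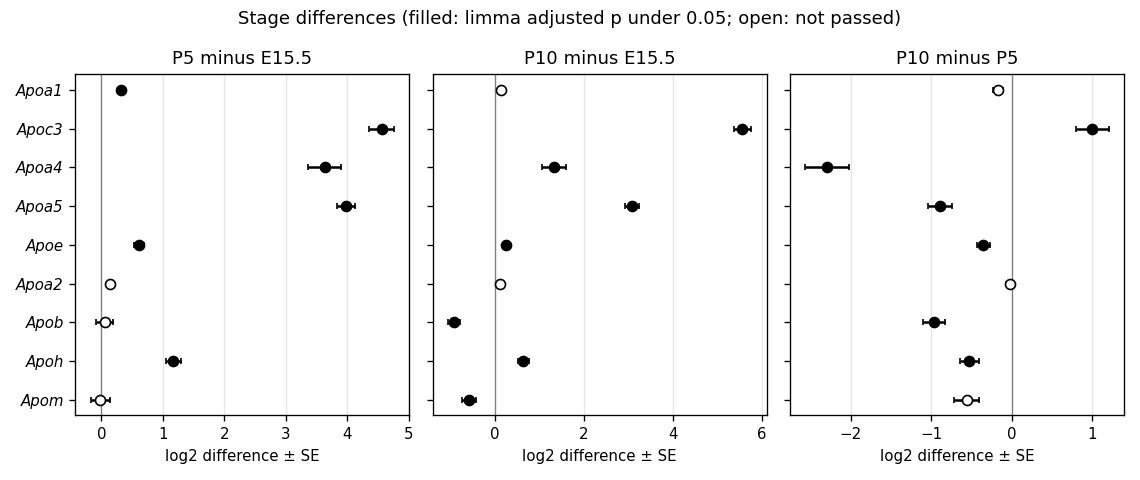
Log2 difference ± SE (horizontal axis) of each measured apolipoprotein gene for the 3 pairs of stages; filled points passed limma's adjusted p under 0.05 and open points did not. Apoc3 is the gene to the right of 0 at P10 against P5, with a value of 1.00, while Apoa4 is farthest to the left with -2.30.

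From E15.5 to P5, 6 of 9 apolipoproteins were higher and 0 lower, where 17.9% of all genes were higher and 17.7% lower. The median difference was 0.62 beside 0.029 over all genes. At P10 against E15.5, 5 were higher and 2 lower, where 20.1% of all genes were higher and 18.6% lower, with a median of 0.26 beside 0.024. At P10 against P5, 1 was higher and 5 lower, where 2.76% of all genes were higher and 2.89% lower, with a median of -0.53 beside -0.0015. The last count fell to 3 when only those 2 stages were fitted, and also without P5 array 2, P10 array 2 or P10 array 3. Over the 3 stages at once, 38.3% of all genes passed limma's F test. These comparisons share arrays, so their counts are not independent of each other.

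Every called difference of a member kept its direction under quantile normalisation and when arrays were centred on the median of all genes or of ribosomal protein genes. A further scaling turned some of them. When each array was centred on the median of the hepatocyte list, an alternative chosen after the data were seen, the median of all genes itself shifted to -1.37 at P5 against E15.5 and to -1.12 at P10 against E15.5. This centring takes the same amount from every gene, and at P5 against E15.5 it left 3.23% of all genes higher and 92.7% lower, beside 3 and 5 of the 9 apolipoproteins. Relative to that list, Apoc3, Apoa5 and Apoa4 were still higher at P5 than at E15.5, by 3.16, 2.58 and 2.23 log2 units. Apoa1 and Apoe turned to -1.07 and -0.78, both past the threshold, and Apoh to -0.22, which was not (limma adjusted p = 0.08588). The family's median at P5 against E15.5 turned to -0.78. The hepatocyte list is itself not constant, since Cyp2e1 and Tat in it rose by 7.17 and 5.98 log2 units from E15.5 to P5 while Alb differed by 0.062. Alb had means of 13.14 and 13.20 at those stages, where array signals can be compressed, so its difference may understate a change. Of the 26 called differences, 14 kept direction and call under this centring, 4 kept only the direction and 8 reversed. With quantile normalisation of the deposited values, 30.8% of all genes were higher and 17.2% lower at P5 against E15.5, and 39.4% and 17.4% at P10 against E15.5, while the family's counts stayed at 6 and 0, and 5 and 2. With each array centred on the median of all genes, P10 against E15.5 gave 30.5% of all genes higher and 16.0% lower, with 7 apolipoproteins higher and 2 lower. At P10 against P5 the same centring gave 4.28% and 2.46% of all genes, with 1 apolipoprotein higher and 3 lower.

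Whether the change differed between the earlier and the later interval was tested directly, as P10 minus P5 less P5 minus E15.5. The intervals are not of equal length. The later change was the lower of the pair for 7 of 9 apolipoproteins and the higher for 0, where 8.7% of all genes were lower and 7.93% higher. The difference of changes was -5.93 ± 0.47 log2 for Apoa4 (SE, limma adjusted p = 0.0001009), -4.87 ± 0.26 for Apoa5 (1.515e-05), -3.56 ± 0.35 for Apoc3 (0.000296) and -1.70 ± 0.20 for Apoh (0.000797). Apoe gave -0.97, Apob -1.03 and Apoa1 -0.50, and Apoa2 and Apom did not pass. The call for Apob was lost without P5 array 1 or 3, with an adjusted p of up to 0.07089. Relative to the hepatocyte list, Apoa4, Apoa5 and Apoc3 kept this call, Apoh lost it, and Apoa1, Apob and Apoe reversed.

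The apolipoproteins outside the 10 moved in part with them. Of 14 measured, 7 were higher and 0 lower at P5 against E15.5, and the same counts held at P10 against E15.5. Over all genes, 17.9% were higher and 17.7% lower at P5, and 20.1% and 18.6% at P10. In the chromosome 7 cluster beside Apoe, Apoc1, an inhibitor of lipoprotein uptake, rose by 1.00 ± 0.060 log2 at P5 (SE, limma adjusted p = 4.751e-06), and Apoc4 rose by 2.75 ± 0.107 (4.245e-07). Relative to the hepatocyte list, where 3.23% of all genes were higher and 92.7% lower, the counts at P5 were 4 higher and 6 lower, and Apoc1 turned to -0.40. Apol7a, of the apolipoprotein L family, rose by 2.94 ± 0.135 at P5 (1.054e-06) and by a further 0.75 from P5 to P10 (limma adjusted p = 0.01727). At P10 against P5, Clu, which encodes apolipoprotein J, fell by 0.67, and Saa4, a serum amyloid A carried on high density lipoprotein, rose by 0.83.

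Genes listed for lipoprotein assembly and secretion, which include general secretory genes such as Hspa5, went in both directions. Of 16 measured, 4 were higher and 7 lower at P5 against E15.5, and 4 and 8 at P10 against E15.5. Over all genes, 17.9% were higher and 17.7% lower at P5, and 20.1% and 18.6% at P10. Mttp, which encodes the transfer protein that loads lipid onto apolipoprotein B, had means of 8.30, 8.05 and 7.14 log2 at E15.5, P5 and P10, and fell by 0.91 ± 0.094 from P5 to P10 (SE, limma adjusted p = 0.001746), the interval in which Apob fell. Hspa5, a chaperone of the endoplasmic reticulum, was at -1.57 at P5 and -2.38 at P10 against E15.5. Dgat2, an enzyme of triglyceride synthesis, rose by 1.31 at P5, and Tm6sf2, which acts in lipidation of the particle, rose by 1.79. The difference of changes for Cideb, a lipid droplet protein, was -1.93. Relative to the hepatocyte list, 1 was higher and 13 lower at P5, beside 3.23% and 92.7% of all genes, and Dgat2 turned to -0.084.

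Apob mRNA is edited in rodent liver by a deaminase with cofactors, which gives the shorter form of the protein. Of 5 genes listed for this editing, not split by their role in it, 3 were higher and 2 lower at both later stages against E15.5. Over all genes, 17.9% were higher and 17.7% lower at P5, and 20.1% and 18.6% at P10. The deaminase Apobec1 rose by 2.77 log2 at P5 against E15.5 (limma adjusted p = 3.727e-05), and its cofactors A1cf and Rbm47 rose too, A1cf by 1.96 at P5 and Rbm47 by 2.16 at P10 against E15.5. Celf2 and Syncrip changed by -1.59 and -0.59 at P5. Editing itself is not measured by these arrays.

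Among enzymes and regulators of lipoprotein remodelling, 6 of 12 were higher and 1 lower at P5 against E15.5. In the same comparison, 17.9% of all genes were higher and 17.7% lower. Pon1, an esterase carried on high density lipoprotein, rose by 5.46 ± 0.17 log2 (SE, limma adjusted p = 1.456e-07), Lcat, which apolipoprotein A-I activates, rose by 1.24, and the phospholipid transfer protein Pltp fell by 1.37. Itih4, a plasma protein, rose by 1.84 at P5 and by 1.06 at P10, and Lmf1, a factor for lipase maturation, fell by 0.48 at P10, each against E15.5. The difference of changes for Gpld1, a phospholipase carried on lipoproteins, was -1.62. Of 15 lipoprotein receptors and uptake genes, 2 were higher, near the share of all genes, and 5 lower at P5 against E15.5. Lrp1, a remnant receptor, fell by 0.98, its chaperone Lrpap1 fell by 1.36 and Vldlr fell by 1.09. Scarb1, the receptor for high density lipoprotein, rose by 0.72. The scavenger receptor Stab1 rose by 0.61 at P5 (limma adjusted p = 0.04091), with P5 arrays at 7.05, 7.64 and 7.97 beside 6.93, 6.93 and 6.96 at E15.5. Mylip, a ligase that degrades lipoprotein receptors, fell by 0.64 at P10 against E15.5. Of 8 efflux genes, 2 were higher and 4 lower at P5 against E15.5, beside the same 17.9% and 17.7% of all genes. The sterol exporters Abcg5 and Abcg8 were higher by 2.83 and 2.31 at P5, and again by 1.06 and 0.82 from P5 to P10. Abca5 fell by 0.57 at P5, and Npc2, a lysosomal cholesterol carrier, fell by 1.24 at P10 against E15.5 and fell by 0.68 from P5 to P10. Relative to the hepatocyte list, Lcat, Scarb1 and Stab1 turned to -0.16, -0.68 and -0.79 at P5, and Itih4 turned to -0.085 at P10 against E15.5.

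Transcription factors known to act on apolipoprotein genes were mostly higher after birth: 20 of 26 were higher and 2 lower at P5, and 22 and 3 at P10, against E15.5. Over all genes, 17.9% were higher and 17.7% lower at P5, and 20.1% and 18.6% at P10. Relative to the hepatocyte list, 11 were higher and 9 lower at P5, beside 3.23% and 92.7% of all genes. Nr0b2, a corepressor of nuclear receptors, rose by 4.40 ± 0.12 log2 at P5 (SE, limma adjusted p = 7.99e-08), Ppara, a fatty acid sensor, rose by 3.46, and Cebpa rose by 2.15. Nr2f1 and Nr2f2, nuclear receptors that can repress these promoters, changed by -1.88 and -1.69. Hnf4a, named here after its values were seen because it is the best known activator of these genes, rose by 2.45 at P5 and differed by 0.053 between P5 and P10 (limma adjusted p = 0.939). Nr1d1, a repressor known to act on Apoc3, rose by 1.44 from P5 to P10, and Rxra, a partner of many nuclear receptors, rose by 0.41.

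**Figure D3:**
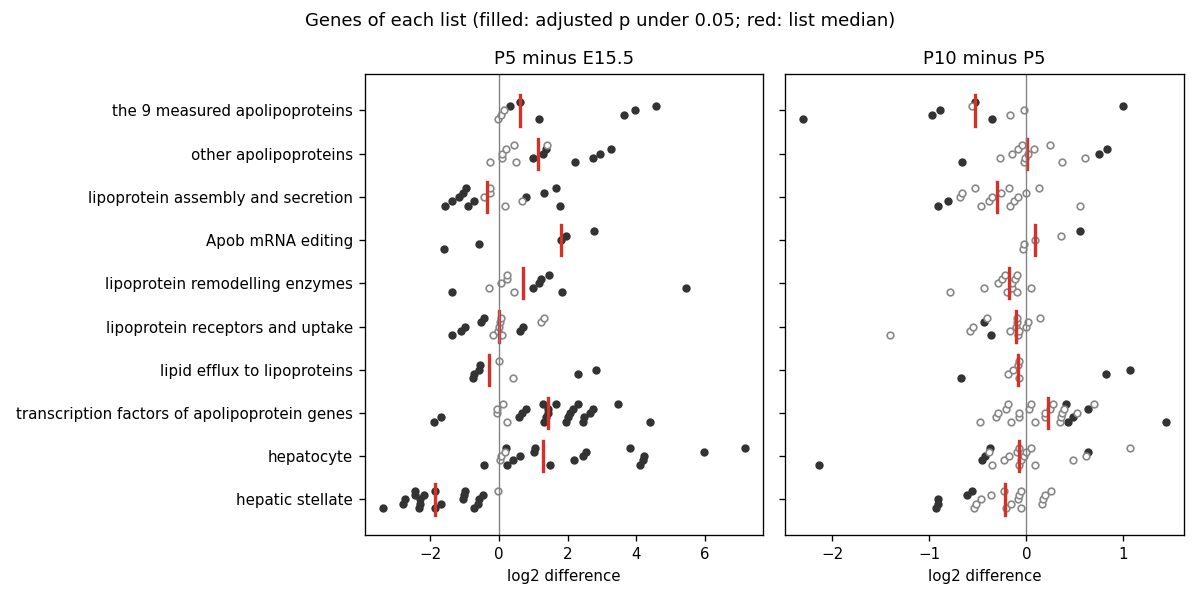
Log2 difference (horizontal axis) of each gene of the apolipoprotein family and of 9 related lists, P5 minus E15.5 on the left and P10 minus P5 on the right; filled points passed limma's adjusted p under 0.05, open points did not, and red bars are list medians. Transcription factors lie mostly to the right at P5 against E15.5 (median 1.43) and stellate genes to the left (median -1.86).

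Cell type lists differed in how far they moved from E15.5 to P5, where 17.9% of all genes were higher and 17.7% lower. Hepatocyte genes were higher for 16 of 20 at P5 against E15.5, and stellate genes were lower for 19 of 20. Of 16 sinusoidal endothelial genes, 4 were higher and 1 lower. Their summed linear signal was 1597 on P5 array 1, 4412 on array 2 and 5301 on array 3, beside 2048 to 2282 at E15.5. Of 14 macrophage genes, 2 were higher and 1 lower, of 7 erythroid genes 0 were higher and 4 lower, and of 13 cell cycle genes 0 were higher and 8 lower. Of 8 genes of intestinal and visceral endoderm epithelium, which also makes apolipoproteins, Fabp2 was the 1 that rose, by 2.75 log2. The macrophage and intestinal lists did not exceed the shares of all genes, with medians of 0.064 and 0.0014 beside 0.029 over all genes. The part of these lists in the apolipoprotein differences was not tested.

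The genes whose pattern over the 9 arrays was most like that of Apoc3, the member with the widest range of stage means (5.56 log2), were Mcee (r = 0.998), Endog (0.997) and Snap47 (0.997). Such likeness was common, since 1305 of 7633 genes that passed the F test had r over 0.95. For Apoa2, which had the narrowest range (0.136), they were Trhr2 (0.978), Foxe3 (0.975) and Nccrp1 (0.975). With 3 stages, r is set mainly by the stage means, and it is given as a description.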

How the data were processed

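RNA of 9 samples, 3 per stage, was measured on Affymetrix arrays. Per the submitters' processing notes, the authors used RMA, Affymetrix Expression Console and Transcriptome Analysis Console 2.0, and the deposited values are log2 signals. The probe annotation gave 1 symbol for 21789 of 35556 probe sets, and the probe set of highest mean stood for each of 19938 genes. Here limma 3.58.1 (R 4.3.3) fitted stage over all 9 arrays, with Benjamini-Hochberg adjustment over all genes. No filter was applied. The genes named are all members, and from each related list the 3 called genes of smallest adjusted p per comparison with up to 2 of the opposite direction. The members and lists were chosen with earlier results of these data known. Promoters were first read over 300 bases; the 150 bases before the start were chosen, and the HNF4-type motif added, after sequences and matches had been seen. Array number limits the precision. The fit was tested on simulated data.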

Additional observations from a re-analysis of the deposited data

How the results depend on the processing

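Of 26 called apolipoprotein differences, 20 passed under every alternative setting run, 6 lost the call under at least 1, and 0 changed direction; there were 18 settings, of which 17 apply to the difference of changes, and they leave aside the hepatocyte centring, under which 14 kept direction and call, 4 kept only direction and 8 reversed. Among uncalled values, quantile normalisation turned Apob at P5 against E15.5 to -0.11 and Apoa2 at P10 against P5 to 0.042; centring on all genes turned Apoa2 to 0.044 and Apom at P5 against E15.5 to 0.014, and centring on ribosomal protein genes turned Apom to 0.053. Leaving out 1 array in turn gave Apob -0.0073 to 0.146, Apom -0.115 to 0.058 and Apoa2 -0.038 to 0.0053 in those comparisons. The count of apolipoproteins called at P10 against P5 was 3 with only those 2 stages fitted, and 3 to 6 leaving out 1 array. Quantile normalisation moved the median of all genes at P10 against E15.5 from 0.024 to 0.150.

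Centring on the hepatocyte list was added after the data had been seen, and it reversed the most values. At P5 against E15.5 it gave -1.07 for Apoa1, -1.26 for Apoa2, -1.34 for Apob, -0.78 for Apoe and -0.22 for Apoh, with a family median of -0.78. At P10 against E15.5 it gave -0.99 for Apoa1, -1.03 for Apoa2, -0.88 for Apoe and -0.50 for Apoh, with a median of -0.88. At P10 against P5 it gave 0.082 for Apoa1 and 0.24 for Apoa2, with a median of -0.27. The difference of changes became 1.15 for Apoa1, 1.495 for Apoa2, 0.62 for Apob, 0.68 for Apoe and 1.11 for Apom. By construction it shifts every gene on an array by the same amount, set by that array's median over the list. The change of this median between stages need not equal the median of the changes of the list's genes.

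With a replicate block, 6, 6, 4 and 7 apolipoproteins were called for P5 over E15.5, P10 over E15.5, P10 over P5 and the difference of changes, beside 6, 7, 6 and 7 without it. Residuals of same-numbered arrays correlated between -0.0795 and 0.0687, and 0 of 9 pairs exceeded 0.1, so the numbers were not taken to pair the samples. Over 300 bases, AGGTCA was found in 3 of 13 windows in place of 1 (16.3% of all such windows hold it) and GTTAAT in 2 in place of 1 (7.1%). TGTTTAC was found in 3 in place of 2 (3.65%), CCAAT in 2 in place of 1 (37.4%) and TATAAA in 5 in place of 4 (13.6%). The windows are not independent, since those of Apoa5 overlap and each counts the same TATAAA.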
